A study of Mus musculus with 12 samples.

Results

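CD38 and 9 further genes that make or break down NAD and adenosine, or that sense adenosine, were followed in mouse bone marrow neutrophils cultured with bile acids. The 10 genes are Cd38, Bst1, Nampt, Ada, Entpd1, Nt5e, Adora2a, Adora2b, Adora3 and Pnp, taken by name from a table of 29737 genes. They were chosen by the measured CPM (scaled count) of Cd38, which was lower with tauro-β-muricholic acid (Tβ-MCA) than with PBS. The values of that contrast therefore describe the choice. No p-value is given for the 10 genes in it, and their calls are counted only beside the share of all genes called. All 10 passed the filter on low counts, which left 16761 genes.

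Wild-type mice gave the bone marrow neutrophils, which were kept for 24 h with PBS as the vehicle, taurocholic acid (TCA), glycocholic acid (GCA) or Tβ-MCA, and each group had 3 samples. The sample labels give 200 μM for TCA and GCA and 10 μM for Tβ-MCA, whereas 200 μM is written for Tβ-MCA in the methods, so Tβ-MCA was not tested against the other bile acids. The labels describe cells carrying Ly6G that were sorted with magnetic beads, and the methods an enrichment kit. The methods name female C57BL/6 mice, bought at 4 to 6 weeks of age. The sources used here do not say whether each sample came from its own mouse, so p-values measure the spread between these samples, which may be technical. All 4 groups were cells of 1 tissue in culture.

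CD38 and its neighbor BST1 (CD157) are ectoenzymes that consume NAD and release nicotinamide, ADP-ribose and cyclic ADP-ribose, which act on calcium stores and calcium channels. NAMPT is the rate-limiting enzyme that rebuilds NAD from nicotinamide. Outside the cell, CD39 (Entpd1) removes phosphates from ATP and ADP and CD73 (Nt5e) turns AMP into adenosine, which dampens inflammatory functions of neutrophils largely through the receptor encoded by Adora2a. Adenosine deaminase (Ada) turns adenosine into inosine and purine nucleoside phosphorylase (Pnp) splits inosine, so that the signal ends.

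Cd38 lies on the plus strand of chromosome 5 (GRCm38, 43868553 to 43912375), 24566 bases after Bst1, which is on the same strand (43818885 to 43843986). The windows of 250 bases before the RefSeq start sites (GRCm38.p6) of 8 of the 10 genes were searched on both strands for 6 short motifs. The motifs were AAANNGAAA (interferon regulatory factors), AGGAAGT (ETS factors and PU.1), TTGCNNAA (C/EBP), TGANTCA (AP-1), AGGTCA (a hexamer of nuclear receptor sites) and TGACGTCA (the cyclic AMP response element). Bst1 and Adora2a had no entry. The windows of Cd38 and Nt5e lay within an annotated first exon and are not printed, and neither held any of the 6 motifs. The windows of Ada, which was lower with Tβ-MCA, and Adora2b also held none. Of the windows of Entpd1, whose groups overlapped, that at chr19:40659520-40659769 held AAANNGAAA and the other held none. The windows of Pnp (chr14:50944053-50944302), Nampt (chr12:32820085-32820334) and Adora3 (chr3:105904171-105904420), all on the plus strand, are shown because these genes stood apart from PBS with Tβ-MCA and their windows hold a match, which is in capitals.
Pnp: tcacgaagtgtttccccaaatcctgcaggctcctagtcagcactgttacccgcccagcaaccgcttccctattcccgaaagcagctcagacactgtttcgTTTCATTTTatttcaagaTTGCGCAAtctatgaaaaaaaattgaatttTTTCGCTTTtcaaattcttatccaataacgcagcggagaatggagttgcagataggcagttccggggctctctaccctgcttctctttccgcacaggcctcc
Nampt: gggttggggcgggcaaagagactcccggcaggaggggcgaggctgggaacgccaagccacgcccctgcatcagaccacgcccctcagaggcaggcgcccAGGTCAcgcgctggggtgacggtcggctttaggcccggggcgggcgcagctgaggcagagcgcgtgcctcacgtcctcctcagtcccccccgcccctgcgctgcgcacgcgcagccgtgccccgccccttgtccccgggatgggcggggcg
Adora3: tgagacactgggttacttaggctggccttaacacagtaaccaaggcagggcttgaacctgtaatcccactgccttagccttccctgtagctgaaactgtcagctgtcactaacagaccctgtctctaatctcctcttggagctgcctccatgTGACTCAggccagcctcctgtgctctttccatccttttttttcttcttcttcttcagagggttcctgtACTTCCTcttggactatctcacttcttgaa
The Pnp window holds AAANNGAAA on the other strand at 2 places, and between them a TTGCNNAA match that reads as such on both strands. These motifs occur in 9.37% and 9.56% of all 32851 windows of this length. The Nampt window holds AGGTCA once, as do 14% of the windows. The Adora3 window holds TGANTCA and, on the other strand, AGGAAGT, found in 6.75% and 7.69% of the windows. TGACGTCA, found in 1.55%, was in no window of the 8 genes. The matches in each window did not overlap, and they are descriptions of the letters only.

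Total counts per sample lay between 32757389 and 41375925, and values are given as CPM, which are counts divided by the TMM-scaled total of the sample. A count of 3, taken as the limit of detection, was 0.0725 to 0.0931 CPM and covers counting error only. Summed CPM of 12 neutrophil markers was 49701 to 61349 with PBS, 47625 to 58495 with TCA and 45100 to 56023 with GCA. With Tβ-MCA the sum was 39881 to 45292, below every PBS sample. Ly6g was detected in every sample, with means of 19.07 CPM with PBS and 9.585 CPM with Tβ-MCA. Of the markers of other cells, Tnfrsf17 (plasma cells), Klrb1c (NK cells) and Cd209d (dendritic cells) stayed at or below that limit in all 12 samples. Other markers of the same lists were detected, so these cell types were not shown to be absent. With PBS, the means were 2.45 CPM for Sdc1 (plasma cells), 0.915 for Nkg7 (T and NK cells) and 23.2 for Flt3 (dendritic cells). With Tβ-MCA, 5 of 12 neutrophil markers were called lower at an adjusted p under 0.05 in edgeR's quasi-likelihood test, Ly6g among them. A negative log2 fold change was found for 11 of 12. Of all genes tested, 7.62% were called, 745 higher and 533 lower, and the median log2 fold change was 0.00. All 12 monocyte and macrophage markers also had negative values with Tβ-MCA, with 0 called by edgeR, and their summed CPM was 1032 to 1058 with PBS and 288, 348 and 808 in Tβ-MCA replicates 3, 4 and 5. Replicate 5 stood apart from the other Tβ-MCA samples in this sum, so values with Tβ-MCA are also given without it. That choice followed its values, and leaving it out moved the log2 fold changes of all members but Entpd1 away from 0. In these bulk samples, fewer cells of a type and less RNA per cell cannot be told apart.

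**Figure D1:**
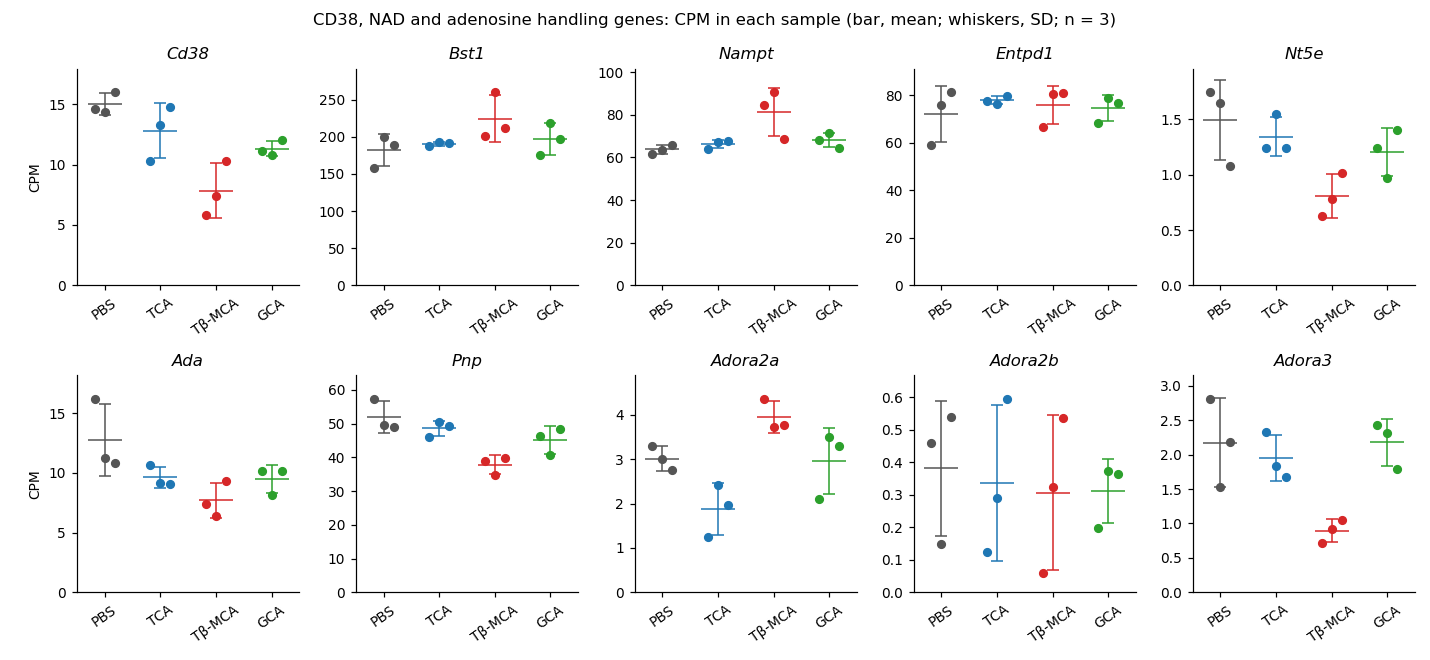
CPM of the 10 genes (y axis, from 0) in each sample of the 4 groups (x axis), with points for samples in order of replicate, horizontal bars for the mean and whiskers for the SD of 3 samples. The means of Cd38, Nt5e, Ada, Pnp, Adora3 and, by little, Adora2b are lowest with Tβ-MCA. Those of Bst1, Nampt and Adora2a are highest with it, while the 4 groups overlap for Entpd1 and Adora2b.

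Cd38 was highest with PBS, at 14.6, 14.3 and 16.0 CPM in replicates 3, 5 and 6. It was 5.86, 7.37 and 10.3 CPM in replicates 3, 4 and 5 with Tβ-MCA. All Tβ-MCA samples lay below all PBS samples, and replicate 5 was the nearest to PBS. The fitted log2 fold change with Tβ-MCA was -0.93 ± 0.17 (SE), a level 0.525 times that with PBS, and it was -1.18 without replicate 5. Over the 13 alternative fits described below, that log2 fold change ranged from -1.18 to -0.76. With GCA, Cd38 was 11.1, 10.8 and 12.03 CPM, again below every PBS sample, and the log2 fold change was -0.40 ± 0.17. With TCA it was 10.3, 13.3 and 14.8 CPM, which overlapped PBS, and the log2 fold change was -0.23 ± 0.17. Neither passed the adjustment over all genes (edgeR adjusted p = 0.9987 for GCA and 0.9999 for TCA). These comparisons share the PBS samples.

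Bst1, the other NAD-consuming ectoenzyme of the pair, had higher values with Tβ-MCA where those of Cd38 were lower. It was 158, 199.8 and 189 CPM with PBS and 200.6, 260.4 and 212 CPM with Tβ-MCA. The lowest Tβ-MCA sample lay just above the highest PBS sample. The log2 fold change was 0.30 ± 0.11 (alternative fits 0.18 to 0.37), or 0.34 without replicate 5. It was 187, 192 and 191 CPM with TCA and 175, 219 and 197 CPM with GCA, and both groups overlapped PBS.

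Nampt had its highest values with Tβ-MCA. It was narrow with PBS, at 61.7, 63.7 and 65.9 CPM, and reached 84.6, 90.8 and 68.7 CPM in Tβ-MCA replicates 3, 4 and 5. The groups did not overlap, and replicate 5 was again the nearest to PBS. The log2 fold change was 0.35 ± 0.09 (alternative fits 0.26 to 0.46), or 1.28 times PBS, and it was 0.46 without replicate 5. With TCA, Nampt was 64.2, 67.4 and 67.6 CPM and with GCA 68.3, 71.5 and 64.6 CPM, so both overlapped PBS.

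The pair of ectonucleotidases that make adenosine from extracellular nucleotides differed in abundance. Entpd1 was 59.0, 75.9 and 81.4 CPM with PBS, 77.5, 76.4 and 79.7 CPM with TCA, 66.6, 80.3 and 80.8 CPM with Tβ-MCA and 68.5, 78.7 and 76.8 CPM with GCA. All groups overlapped, and the 95% interval of the log2 fold change with Tβ-MCA was -0.15 to 0.30 around 0.07, and the value was 0.03 without replicate 5. Nt5e was near the lower end of the measured range, with 21 to 64 counts a sample. It was 1.75, 1.65 and 1.08 CPM with PBS and 0.63, 0.78 and 1.02 CPM with Tβ-MCA, where the groups were separated by a small gap. The log2 fold change was -0.87 ± 0.27 (alternative fits -1.07 to -0.72), and -1.07 without replicate 5. Nt5e was not called by edgeR in all 12 samples but was called by DESeq2, and by edgeR without that replicate. It was 1.24, 1.55 and 1.25 CPM with TCA and 1.24, 0.97 and 1.40 CPM with GCA.

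Ada and Pnp, which end the adenosine signal, were lower with Tβ-MCA. Ada was 16.2, 11.2 and 10.8 CPM with PBS and 7.36, 6.40 and 9.31 CPM with Tβ-MCA, a log2 fold change of -0.73 ± 0.17. PBS replicate 3 was well above the other PBS samples, and the value was -0.52 without it and -0.89 without Tβ-MCA replicate 5. Ada was also below every PBS sample with TCA, at 10.7, 9.14 and 9.10 CPM, and with GCA, at 10.2, 8.11 and 10.2 CPM. The log2 fold changes were -0.40 ± 0.17 and -0.43 ± 0.17 (edgeR adjusted p = 0.9999 and 0.9987), and without PBS replicate 3 they were -0.20 and -0.21.

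Pnp was 57.3, 49.5 and 49.1 CPM with PBS and 39.0, 34.6 and 39.7 CPM with Tβ-MCA, and the groups did not overlap. The log2 fold change was -0.46 ± 0.09 (alternative fits -0.50 to -0.38), and -0.50 without replicate 5. With GCA Pnp was 46.4, 40.6 and 48.5 CPM, just below every PBS sample, and with TCA 46.1, 50.5 and 49.1 CPM, which overlapped PBS. Pnp shares sequence with other annotated genes, so its counts are uncertain: 22.1% of its 50-base stretches occur in other transcripts, and 11.5% of its exon bases lie opposite exons of Gm38316. The neighbors moved too with Tβ-MCA, with log2 fold changes of -0.46 ± 0.10 for Gm38316 and -0.77 ± 0.15 for the near copy Pnp2 (edgeR adjusted p = 0.0221 and 0.0208).

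The adenosine receptors were the least abundant members beside Nt5e. Adora3, a receptor that couples to inhibitory G proteins, was 2.81, 1.53 and 2.18 CPM with PBS and 0.72, 0.92 and 1.04 CPM with Tβ-MCA, in 24, 34 and 39 counts. The groups did not overlap. The log2 fold change was -1.28 ± 0.26 (alternative fits -1.475 to -1.05), or 0.413 times PBS, and -1.40 without replicate 5. It was 2.33, 1.84 and 1.68 CPM with TCA and 2.42, 2.32 and 1.79 CPM with GCA, within the range of PBS. On the same strand, 20.9% of the exon bases of Adora3 are shared with Tmigd3, whose log2 fold change with Tβ-MCA was -0.14 ± 0.16 (edgeR adjusted p = 0.660).

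Adora2a, the stimulatory receptor best known in neutrophils, was the member whose groups lay on different sides of PBS. It was 3.30, 3.001 and 2.75 CPM with PBS, and 4.37, 3.73 and 3.77 CPM with Tβ-MCA, all above PBS. It was 1.24, 2.42 and 1.98 CPM with TCA, all below PBS, and 2.11, 3.49 and 3.29 CPM with GCA, on both sides of PBS. The log2 fold changes were 0.39 ± 0.22 with Tβ-MCA, -0.67 ± 0.23 with TCA and -0.02 ± 0.23 with GCA, and none was called. Without Tβ-MCA replicate 5 the first was 0.42. Adora2b, the receptor with low affinity for adenosine, had 2 to 22 counts a sample and 0.12 to 0.60 CPM in the samples above the detection limit. Tβ-MCA replicate 3, with 2 counts, was below that limit. The 95% interval of its log2 fold change with Tβ-MCA was -1.71 to 1.10, which includes the value seen for Adora3, and the estimate moved from -0.30 to -0.96 without replicate 5.

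**Figure D2:**
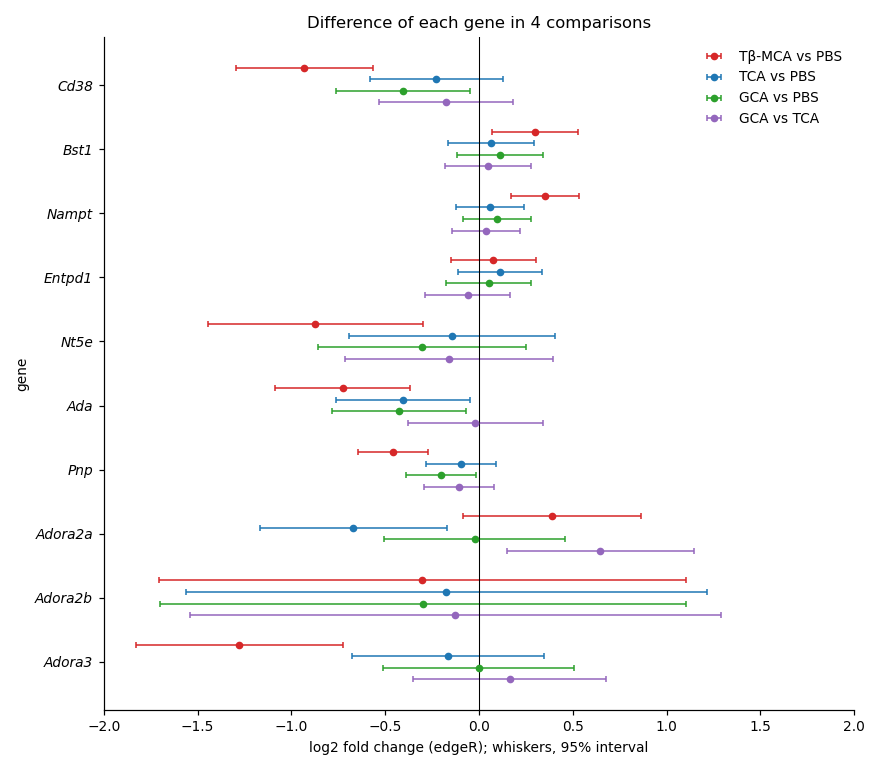
Fitted log2 fold changes (x axis) of the 10 genes (y axis) in 4 comparisons, with points for the estimates and whiskers for 95% intervals. The Tβ-MCA intervals of Cd38, Nt5e, Ada, Pnp and Adora3 lie below 0 and those of Bst1 and Nampt above 0, and the intervals of Adora2b span more than those of any other member. The contrast of Tβ-MCA with PBS chose the members, so its intervals describe that choice and are no test.

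Counted over the members, 5 of 10 were called with Tβ-MCA at an adjusted p under 0.05, with Nampt higher and Cd38, Ada, Adora3 and Pnp lower, where 7.62% of all genes tested were called (745 higher and 533 lower). The groups did not overlap for 8 of 10 members, against 27% of all genes, and only Adora3 passed an unadjusted p under 0.05 with a fold of at least 2, against 2.95%. Since this contrast chose the members, nothing is read from these counts. The median log2 fold change of the members was -0.38 and that of all genes 0.00. The count was 0 of 10 when PBS replicate 3, PBS replicate 5, Tβ-MCA replicate 3 or Tβ-MCA replicate 4 was left out, 2 without PBS replicate 6 and 6 without Tβ-MCA replicate 5. In the 4 fits with 0 members called, edgeR called 0 of all genes, with 2875 to 3599 of all genes at an unadjusted p under 0.05.

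TCA and GCA gave no call for any member by edgeR or DESeq2. With TCA, 0 of 10 members were called, as were 0% of all genes, and DESeq2 called 1 gene that is no member. Ada and Adora2a had an unadjusted p under 0.05, against 3.26% of all genes, and the same 2 members did not overlap PBS, against 9.67%. With GCA, 0 of 10 members and 0% of all genes were called. Cd38, Ada and Pnp had an unadjusted p under 0.05, against 3.53%, and the same 3 members lay below PBS without overlap, against 9.55%. No member passed the unadjusted p with a fold of at least 2 in either comparison, against 0.465% with TCA and 0.531% with GCA. The median log2 fold change of the members was -0.15 with TCA and -0.11 with GCA.

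GCA and TCA are cholic acid joined to glycine and to taurine, and they were given at the same dose and for the same time. This was the 1 pair of compounds tested, with p adjusted over all 16761 genes, and 0 of 10 members were called, as were 0% of all genes by edgeR. Adora2a was higher with GCA by a log2 difference of 0.65 (95% interval 0.15 to 1.14, edgeR adjusted p = 0.9998), and it was the only member with an unadjusted p under 0.05, against 2.46% of all genes. Its samples overlapped between the compounds, and all 10 members overlapped, whereas 8% of all genes did not. The log2 difference was -0.18 for Cd38 (-0.54 to 0.18), -0.02 for Ada (-0.38 to 0.34), -0.11 for Pnp (-0.29 to 0.08) and 0.16 for Adora3 (-0.35 to 0.68). The intervals were -0.15 to 0.22 for Nampt, -0.18 to 0.28 for Bst1 and -0.29 to 0.17 for Entpd1. They were widest for Nt5e, at -0.71 to 0.40, and Adora2b, at -1.54 to 1.29, where large differences could be missed. No member passed an unadjusted p under 0.05 with a fold of at least 2, against 0.442%.

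Per length, the members spanned a wide range. Deposited RPKM with PBS was 54.3 ± 7.0 (SD, n = 3) for Bst1, 16.6 ± 1.3 for Pnp, 13.9 ± 0.6 for Nampt and 12.8 ± 2.2 for Entpd1. It was 6.28 ± 1.41 for Ada, 3.81 ± 0.26 for Cd38, 1.18 ± 0.09 for Adora2a and 0.576 ± 0.165 for Adora3. Adora2b and Nt5e were last, at 0.205 ± 0.111 and 0.171 ± 0.040. With PBS, the samples of neighbors in this order overlapped only between Nampt and Entpd1 and between Adora2b and Nt5e. With Tβ-MCA the RPKM of Nampt, at 18.3 ± 2.7, stood above that of Pnp, at 12.5 ± 0.8, without overlap, and Cd38, at 2.06 ± 0.58, overlapped Adora2a, at 1.60 ± 0.14. Adora3 overlapped Adora2b, and Adora2b overlapped Nt5e, with Tβ-MCA.

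**Figure D3:**
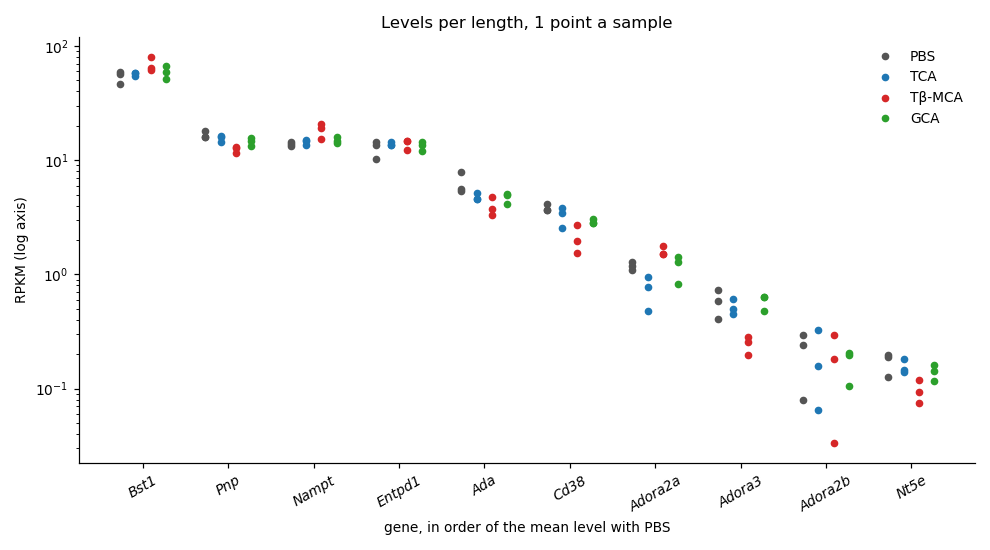
Deposited RPKM (y axis, log scale) of the 10 genes (x axis, in order of the mean with PBS), with 1 point a sample and colors for the 4 groups. Bst1 lies above all other members in every sample, and with Tβ-MCA all Nampt points lie above those of Pnp.

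Markers of other cells were set beside the members. The order of Cd38 within the Tβ-MCA group, with 5.86, 7.37 and 10.3 CPM, was that of the summed monocyte and macrophage markers. It was also that of Ly6g, at 7.54, 8.32 and 12.9 CPM, and of the summed plasma cell and T and NK cell markers. The summed neutrophil, B cell, eosinophil, basophil and mast cell, dendritic and erythroid markers had other orders. Ccr2, a defining chemokine receptor of inflammatory monocytes, was 37.3 to 51.2 CPM with PBS and 2.03, 2.70 and 29.2 CPM in Tβ-MCA replicates 3, 4 and 5. GCA replicate 4 was the lowest of the GCA samples both in the summed monocyte and macrophage markers, at 740 CPM, and in Cd38. This sample was also the lowest of them in Ly6g, at 11.7 CPM, and in the summed neutrophil markers, at 45100 CPM. The same held for the eosinophil, basophil and mast cell, dendritic, B cell and T and NK cell sums, but not for the plasma cell and erythroid sums. TCA replicates 4 and 5 had monocyte and macrophage sums of 1099 and 1103 with Cd38 at 13.3 and 14.8 CPM. GCA replicates 3 and 5 had sums of 993 and 1019 with Cd38 at 11.1 and 12.03 CPM. PBS samples had sums of 1032 to 1058 with Cd38 at 14.3 to 16.0 CPM. Cd38 was 10.3 CPM both in TCA replicate 3, at a sum of 922, and in Tβ-MCA replicate 5, at 808. Of all genes tested, 7.62% were called with Tβ-MCA, and the median log2 fold change of all genes was 0.00. Eosinophil markers had 8 of 8 negative values with Tβ-MCA and 1 called, Siglecf. Their sums were 157 to 276 CPM with PBS, 152 to 243 with TCA, 61.1 to 141 with Tβ-MCA and 128 to 269 with GCA. Basophil and mast cell markers had 7 of 8 negative values and 1 called, Hdc, with sums of 207 to 278 CPM with PBS and 125 to 169 with Tβ-MCA. Of the B cell markers, 8 of 10 were negative with 1 called, Cd79a, and the sums were 42.7 to 59.4 CPM with PBS and 40.5 to 44.8 with Tβ-MCA. Plasma cell, T and NK cell, dendritic and erythroid markers had 0 called by edgeR, and each of these lists summed to at most 40.3 CPM in any sample. The part of these cells in the levels of the members was not tested.

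**Figure D4:**
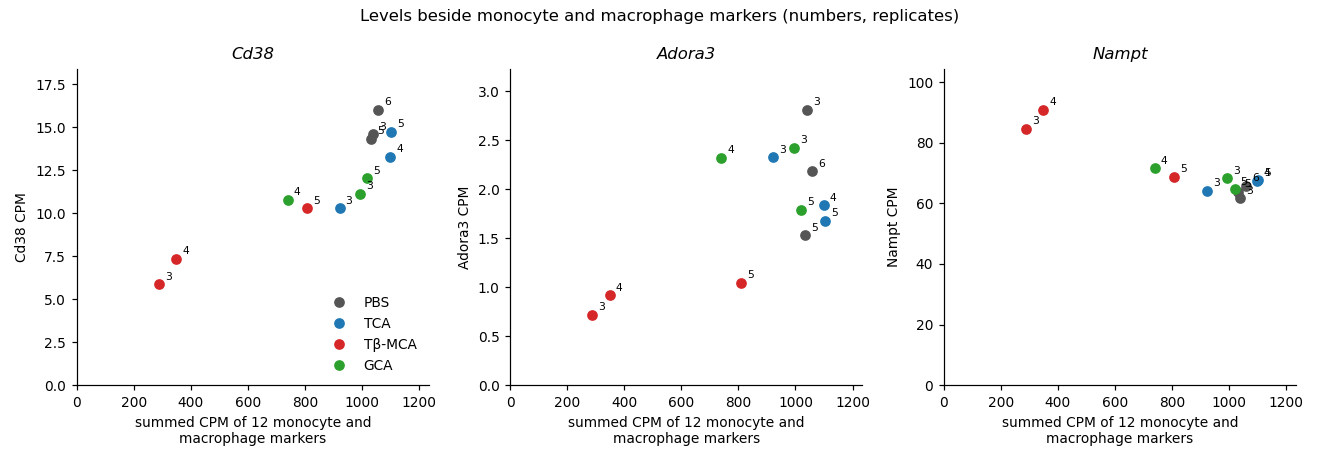
CPM of Cd38, Adora3 and Nampt (y axes, from 0) against the summed CPM of 12 monocyte and macrophage markers (x axes, from 0), with 1 point a sample, colors for groups and numbers for replicates. Tβ-MCA replicates 3 and 4 lie at marker sums of 288 and 348 and replicate 5 at 808, next to GCA replicate 4 at 740, and in these 2 samples Cd38 is 10.3 and 10.8, Nampt 68.7 and 71.5, and Adora3 1.04 and 2.32.

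Genes whose log2 CPM (prior count 2) followed Cd38 most closely over the 12 samples were Nlrc4 (Pearson r = 0.98), an inflammasome component, Idh3a (0.97), an enzyme of the citric acid cycle, Rexo2 (0.97), Uso1 (0.97) and Rrp12 (0.965), out of 13222 genes with a mean of at least 1 CPM. Those that ran most against it were A430078G23Rik (-0.98), Tsc2 (-0.97), an inhibitor of mTOR signaling, and Adgrb1 (-0.97). The 12 points share their groups, with Tβ-MCA samples lowest, and they share library-wide effects, so these values are descriptions. Within the 9 samples without Tβ-MCA, r was 0.97 for Nlrc4, 0.92 for Idh3a, 0.86 for Rexo2, 0.86 for Uso1 and 0.90 for Rrp12. It was -0.90 for A430078G23Rik, -0.90 for Tsc2 and -0.88 for Adgrb1. These 9 samples were among those that picked the genes, so the values are no separate check. Of the other members, over all 12 samples, Nampt had r = -0.84, Bst1 -0.54 and Adora2a -0.37, while Nt5e had 0.83, Pnp 0.83, Adora3 0.73, Ada 0.71 and Entpd1 0.09. Counted from the highest r among the 13222 genes, Nt5e ranked 810, Pnp 818, Adora3 1508, Ada 1665 and Entpd1 5807. Adora2a ranked 9170, Bst1 10445 and Nampt 12711. The Tβ-MCA samples, whose contrast chose the members, are part of these values, which describe that choice.

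The pathways around the members were read from 7 lists of 101 further genes, of which 97 were in the table and 79 were tested. With Tβ-MCA, 4 were called higher and 5 lower, against the 7.62% called among all genes. Their median log2 fold change was -0.01, and that of all genes 0.00. With TCA, GCA and GCA against TCA, edgeR and DESeq2 called 0 of the 79, and 1, 3 and 0 had an unadjusted p under 0.05 in edgeR. The count with Tβ-MCA was 0 when PBS replicate 3, PBS replicate 5, Tβ-MCA replicate 3 or Tβ-MCA replicate 4 was left out, 3 without PBS replicate 6 and 13 without Tβ-MCA replicate 5. Without that replicate all 9 stayed called by edgeR, at 0.93 for Trpm2, 1.23 for Enpp5, 0.93 for Entpd6, 0.97 for P2ry1, -1.26 for Entpd3, -1.12 for P2rx1, -1.08 for Dpp4, -0.89 for Pnp2 and -0.74 for Aprt.

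Among channels opened by products of CD38, 1 of 5 was called with Tβ-MCA, against 7.62% of all genes. Trpm2, a calcium channel opened by ADP-ribose, was 939, 1213 and 1249 CPM with PBS and 2199, 2116 and 1458 CPM with Tβ-MCA. All Tβ-MCA samples lay above PBS, and the log2 fold change was 0.76 ± 0.16 (edgeR adjusted p = 0.0239). The ryanodine receptors Ryr1 and Ryr2 and the channels Tpcn1 and Tpcn2, the others of that list tested, were not called. Of 13 genes of NAD synthesis and 16 other NAD-consuming enzymes, edgeR called 0, with 1 and 4 at an unadjusted p under 0.05, against 24.9% of all genes, and the medians were -0.04 and 0.14.

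Among enzymes that hydrolyse nucleotides and the ATP channel Panx1, 2 of 15 were called higher and 1 lower with Tβ-MCA, against 7.62% of all genes called. Enpp5 was 10.2, 8.004 and 8.95 CPM with PBS and 23.5, 18.9 and 13.5 CPM with Tβ-MCA, a log2 fold change of 1.04 ± 0.20 (edgeR adjusted p = 0.0208). Entpd6, a relative of CD39, was 5.19, 4.89 and 6.45 CPM with PBS and 10.6, 10.4 and 8.65 CPM with Tβ-MCA (0.84 ± 0.14, edgeR adjusted p = 0.0206). Entpd3, a further relative of CD39, went the other way, from 9.93, 11.7 and 10.1 CPM to 3.59, 5.24 and 8.30 CPM (-0.89 ± 0.23, edgeR adjusted p = 0.0379). The values of the CD39 family thus lay on both sides of 0.

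The list of purine salvage and breakdown, which also holds the peptidase gene Dpp4, had 3 of 14 genes called lower and 0 higher with Tβ-MCA. Of all genes, 7.62% were called. In this list 12 of 14 values were negative, with a median of -0.15 against 0.00 for all genes. One called gene was Pnp2, the near copy of Pnp. Another was Aprt, which recycles adenine, at 41.8, 50.9 and 42.7 CPM with PBS and 24.5, 29.6 and 38.1 CPM with Tβ-MCA (-0.55 ± 0.13, edgeR adjusted p = 0.0277). The third was Dpp4, the peptidase CD26, at 3.96, 2.33 and 3.48 CPM with PBS and 1.80, 1.30 and 2.06 CPM with Tβ-MCA (-0.92 ± 0.27, edgeR adjusted p = 0.0473). Among genes named as P2 receptors, P2ry1 was higher (0.82 ± 0.17, edgeR adjusted p = 0.0211) and P2rx1 lower (-0.84 ± 0.18, edgeR adjusted p = 0.0211). The other 9 tested were not called, and 7.62% of all genes were. P2ry1, a receptor for ADP, was 8.59 to 10.8 CPM with PBS and 13.3 to 20.3 CPM with Tβ-MCA, and P2rx1, a channel opened by ATP, was 5.07 to 6.11 and 2.27 to 4.12 CPM. Of 5 nucleoside transporters and Adora1 tested together, 0 were called by edgeR and 1 had an unadjusted p under 0.05, against the same 24.9%.

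**Figure D5:**
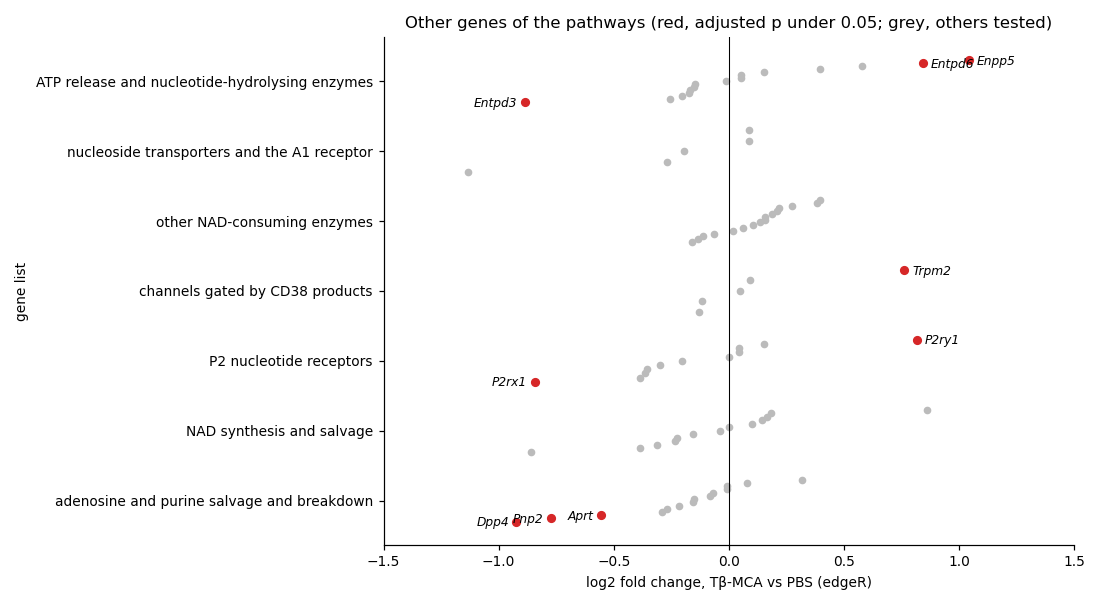
Log2 fold changes with Tβ-MCA against PBS (x axis) of the 79 further genes tested, in 7 lists (y axis), with red points for an adjusted p under 0.05 and grey points for the others. Called genes are named, and they fall on both sides of 0 among nucleotide-hydrolysing enzymes and P2 receptors but only below 0 in purine salvage and breakdown. The latter list has 3 called genes of 14, and 7.62% of all genes tested were called.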

How the data were processed

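RNA of 12 cultures of mouse bone marrow neutrophils was sequenced from stranded mRNA libraries. Per the submitters' processing notes, reads were handled with Trimmomatic 0.36, STAR 2.5.3a and featureCounts of Subread 1.5.1 on GRCm38 (mm10). The authors deposited raw counts per gene and RPKM values, and RPKM recomputed from the counts and the exon lengths differed by at most 1.3e-06 in relative terms. Whether strand was used and whether mates or pairs were counted is not given in the sources used here, so a gene and its partner on the other strand cannot be told apart.

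Counts were scaled by TMM, filtered with filterByExpr by group and compared with the robust quasi-likelihood test of edgeR 4.0.16 (R 4.3.3) over all 12 samples, with Benjamini-Hochberg adjustment over 16761 genes, and a gene was called at an adjusted p under 0.05. The code was checked on simulated counts. Alternatives were DESeq2 1.42.0, other scalings and filters, the 2 groups alone, a replicate block, and each sample left out in turn. Intervals are 95% intervals. Tables and plots used Python 3.11.15 with pandas 2.3.3 and matplotlib 3.10.9.

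Total counts were 32757389 to 41375925 a sample. Genes named are the 10 members, the 5 genes with the highest and the 3 with the lowest correlation with Cd38, up to 3 called genes of each pathway list, and markers that moved with Cd38 or were at the detection limit. Overlapping genes of Adora3 and Pnp, and Ryr1, Ryr2, Tpcn1, Tpcn2, Panx1, Adora1, Sdc1, Nkg7 and Flt3 of the lists, lie outside this rule and were named after their values were seen. The members and all lists were chosen with earlier results of these data known.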

Additional observations from a re-analysis of the deposited data

How the results depend on the processing

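With Tβ-MCA against PBS, the number of members called, 5 in all 12 samples, was 0 when only the 2 groups compared were fitted and 1 at an unadjusted p under 0.05 with a fold of at least 2, and it ranged from 0 to 6 when single samples were left out. The number of pathway genes called, 9 in all 12 samples, was 0 with only the 2 groups, 2 at the unadjusted p with the fold, and 0 to 13 when single samples were left out. The fits of 2 groups and those without a sample hold fewer samples, and edgeR called 0 of all genes in 5 of them, with 2875 to 3599 genes at an unadjusted p under 0.05, and 3076 genes were called without Tβ-MCA replicate 5. DESeq2 called 6 members and 11 pathway genes. Scaling by total library size moved the calls over all genes from 745 higher and 533 lower to 1013 and 395, and it shifted the median log2 fold change to 0.05.

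The sources used here do not say whether the replicate numbers in the labels stand for mice or days. Samples with the same number correlated in their deviations from the group means with r = 0.0597 to 0.326 (mean 0.189) over 15 pairs. For samples of different groups and numbers, r was -0.268 to 0.154 (mean -0.0716) over 39 pairs. In 15 of 18 comparisons among the bile acid groups a sample correlated best with its own number. With the number as a replicate block, 6 members and 10 pathway genes were called with Tβ-MCA, and 0 of either in the other comparisons. Of the 9 pathway genes called without it, Trpm2 and Dpp4 were then not called (edgeR adjusted p = 0.103 and 0.0644), and Adora2a with Tβ-MCA was 0.243.

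The log2 fold change of Adora3 with GCA, -0.00, was 0.0146 with total library size, 0.00325 without a filter and 0.0167 with the replicate block. When single samples were left out, signs changed for uncalled values. With Tβ-MCA against PBS, log2 fold changes ranged from -0.05 to 0.171 for Entpd1 and -0.959 to 0.161 for Adora2b. With TCA against PBS, log2 fold changes ranged from -0.0329 to 0.135 for Bst1, -0.0156 to 0.208 for Entpd1, -0.841 to 0.192 for Adora2b and -0.361 to 0.059 for Adora3. With GCA against PBS, log2 fold changes ranged from -0.0733 to 0.148 for Entpd1, -0.154 to 0.17 for Adora2a, -0.676 to 0.0342 for Adora2b and -0.199 to 0.225 for Adora3. With GCA against TCA, log2 fold changes ranged from -0.0311 to 0.129 for Bst1, -0.0748 to 0.079 for Ada and -0.492 to 0.542 for Adora2b. The cause was not tested. Adora2b, with a mean under 1 CPM, had 2 to 22 counts a sample. With at least 10 counts in every sample it gave no value.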
